A study of Mus musculus with 12 samples.

Results

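The nuclear receptor superfamily was described here through 47 mouse genes, listed by name among 21883 protein-coding genes, and through the ATAC-seq peaks that lie at them. A peak belonged to a receptor gene where its centre lay inside the gene or where that gene was the nearest protein-coding gene within 100 kb. By this rule the receptor genes held 256 of the 63501 peaks of KC-H, 168 of 50550 of KC-N, 117 of 34293 of KN-RM, 176 of 61492 of Ly6CHi-RM, 176 of 54621 of Ly6CLo-RM and 203 of 69616 of Blood-Ly6CHi-NASH. No peak counted for more than 1 receptor gene.

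ATAC-seq marks open DNA by the insertion of a transposase, and was done on 12 libraries of myeloid cells sorted from C57BL/6J mice, 2 in each of 6 groups. KC-H are Kupffer cells, the macrophages resident in the liver, sorted as F4/80-high and Tim4-positive from mice on a control diet, and KC-N are cells of the same sort from mice on a NASH diet, which models fatty liver with inflammation. KN-RM are F4/80-high Tim4-negative cells that the labels also call Kupffer cells, Ly6CHi-RM and Ly6CLo-RM are CD11b-high recruited liver macrophages with high or low Ly6C, and Blood-Ly6CHi-NASH are Ly6C-high monocytes of the blood, all from NASH-diet mice. Each group has 1 deposited peak list for both of its libraries, so a value below is 1 per group, has no replicate error and carries no test. The labels give no age or sex and do not say whether the libraries of a group came from separate mice. A peak shows open DNA and not the RNA level of the gene. Where 6 values follow each other without names, their order is that of the lists in the first paragraph.

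Nuclear receptors are transcription factors, many of which are switched by small lipid-soluble ligands such as oxysterols, fatty acids, retinoids, thyroid hormone, vitamin D and steroids. Many of them bind DNA as a pair with a retinoid X receptor (RXR) at repeats of a short core motif. Others bind as a pair of identical receptors or alone, and some of these have no known ligand and are called orphan receptors. In macrophages the liver X receptors (LXRs) are known for control of cholesterol export, and the series as a whole also includes LXR binding data that are not used here.

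The start-site windows below belong to 5 of the receptor genes whose peaks differed most between lists: Rxra, Thrb, Rara, Rarb and Pparg. Each runs from 250 bases before to 50 bases after the first listed start of its gene, is taken from RefSeq on GRCm38.p6, and reads 5′ to 3′ along the gene. Capitals mark every match, on either strand, to 8 letter patterns. These were AGGTCA (nuclear receptor core motif), CACGTG (E-box), TGACGTCA (cyclic AMP response element, CRE), TGANTCA (AP-1), TTGCNNAA (C/EBP), GAGGAAGT (PU.1), GGGCGG (GC box), and GTTCACNNNNNGTTCAC, a direct repeat that was searched after the Rarb window had been seen.
Rxra, chr2:27676951-27677250, plus strand: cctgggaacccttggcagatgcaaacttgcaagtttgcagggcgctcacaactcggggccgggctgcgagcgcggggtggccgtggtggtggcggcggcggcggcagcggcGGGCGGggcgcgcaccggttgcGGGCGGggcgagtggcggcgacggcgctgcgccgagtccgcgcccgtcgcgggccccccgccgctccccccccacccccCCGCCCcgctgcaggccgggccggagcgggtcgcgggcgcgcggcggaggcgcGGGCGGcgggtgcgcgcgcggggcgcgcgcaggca
Thrb, chr14:17660710-17661009, plus strand: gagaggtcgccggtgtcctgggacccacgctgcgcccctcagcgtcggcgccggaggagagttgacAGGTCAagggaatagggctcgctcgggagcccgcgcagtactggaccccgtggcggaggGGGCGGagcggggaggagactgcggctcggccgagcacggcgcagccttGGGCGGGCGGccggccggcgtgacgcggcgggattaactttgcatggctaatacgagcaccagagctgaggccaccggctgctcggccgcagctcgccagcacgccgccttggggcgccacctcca
Rara, chr11:98937446-98937745, plus strand: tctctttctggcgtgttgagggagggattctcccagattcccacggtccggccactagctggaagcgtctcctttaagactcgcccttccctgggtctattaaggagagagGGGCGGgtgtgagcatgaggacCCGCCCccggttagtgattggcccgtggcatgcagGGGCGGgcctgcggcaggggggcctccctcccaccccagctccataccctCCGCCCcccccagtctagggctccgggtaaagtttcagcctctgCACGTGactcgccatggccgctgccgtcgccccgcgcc
Rarb, chr14:16575427-16575726, minus strand: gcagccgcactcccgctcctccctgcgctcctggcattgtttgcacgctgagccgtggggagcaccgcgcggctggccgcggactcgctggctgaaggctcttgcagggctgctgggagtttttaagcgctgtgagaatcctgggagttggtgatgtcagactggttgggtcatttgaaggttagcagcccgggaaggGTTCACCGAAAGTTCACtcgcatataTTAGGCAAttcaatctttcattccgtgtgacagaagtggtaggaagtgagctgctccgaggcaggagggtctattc
Pparg, chr6:115360894-115361193, plus strand: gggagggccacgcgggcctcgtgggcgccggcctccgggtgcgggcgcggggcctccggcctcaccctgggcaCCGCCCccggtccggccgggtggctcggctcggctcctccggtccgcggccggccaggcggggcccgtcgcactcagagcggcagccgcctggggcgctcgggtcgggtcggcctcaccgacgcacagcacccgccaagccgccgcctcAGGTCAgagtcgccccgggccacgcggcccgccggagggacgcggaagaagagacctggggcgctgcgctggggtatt

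Positions are counted from the start site, with negative numbers before it. The Rxra window held 4 GC boxes and none of the other patterns, and its GC content was 83.0%. In the Thrb window an AGGTCA began at position -184, followed by 3 GC boxes, 2 of which overlap. The Rara window held 4 GC boxes and an E-box that began at position 13. The Pparg window held 1 GC box and an AGGTCA that began at position -28. The Rarb window was the only 1 of these 5 without a GC box; it held a C/EBP match that began at position -26 and the direct repeat, which began at position -52. A repeat of this motif with 5 bases between its copies is the retinoic acid response element for which this promoter is known, through which retinoic acid induces its own receptor. The exact letter pattern was found in 2 of the 32817 start-site windows of the reference, or 0.00609%, and in 1 of the 64 receptor windows. The 1 was the Rarb window, and since the pattern was searched after that window had been seen, this match tests nothing. Other spellings of such a repeat were not searched, so the counts do not show how rare such elements are at start sites.

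Among the 64 listed windows of 43 receptor genes, AGGTCA was in 12 (18.8%, against 16.3% of all windows and 14.7% of those of protein-coding genes) and TTGCNNAA in 12 (18.8%, against 10.8% and 10.2%). GGGCGG was in 28 (43.8%), above the 35.6% of all windows and below the 46.2% of protein-coding ones. CACGTG was in 6 (9.38%, against 7.15% and 7.84%), TGACGTCA in 2 (3.12%, against 1.79% and 2.24%), TGANTCA in 3 (4.69%, against 7.81% and 6.99%) and GAGGAAGT in 1 (1.56%, against 3.2% and 3.13%). These are matches of letters and not sites shown to bind a factor. No start site was listed for Thra, Hnf4g, Nr3c1 and Nr5a1.

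Marker genes were read in the same way. The 7 Kupffer cell markers summed to 108 peaks in KC-H, 48 in KC-N, 31 in KN-RM, 23 in Ly6CHi-RM, 14 in Ly6CLo-RM and 25 in the blood list. Timd4, which encodes the Tim4 of the sort, had 17 peaks in KC-H, 1 each in KC-N and Ly6CLo-RM, and 0 in KN-RM, Ly6CHi-RM and blood, so the Tim4-positive KC-N list does not stand apart from the Tim4-negative one at this gene. The 5 monocyte markers summed to 8 to 12 peaks in the F4/80-high lists and to 15 to 31 in the other 3, and the 5 macrophage markers to 29 to 74 in all lists. The 6 hepatocyte markers summed to 1 to 3 peaks in the liver lists and 13 in blood, of which 11 were at Alb, while Serpina1a, Cyp3a11 and Fgb were at 0 in every list. Of the 5 stellate markers Lrat, Des and Reln were at 0 in every list. The 5 liver endothelial markers summed to 32, 22, 13, 16, 17 and 17 peaks in the order above. Stab2 alone held 19, 13, 7, 1, 1 and 1, while Kdr held 2, 3, 2, 5, 7 and 7 and Pecam1 8, 4, 4, 7, 7 and 6. The lists differ in length, and a list of fewer peaks can miss a weak site that was open. In sorted bulk cells, fewer cells with an open site and a less open site in each cell cannot be told apart.

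As a share of its list, the receptor genes held 0.403% of the peaks of KC-H (95% Wilson interval 0.357 to 0.456), 0.332% of KC-N (0.286 to 0.386), 0.341% of KN-RM (0.285 to 0.409), 0.286% of Ly6CHi-RM (0.247 to 0.332), 0.322% of Ly6CLo-RM (0.278 to 0.373) and 0.292% of blood (0.254 to 0.334). The intervals cover counting error only, and peaks at 1 gene are not independent of each other. The KC-H share was the highest and its interval reached below the upper bounds of KC-N, KN-RM and Ly6CLo-RM. With every list shortened to its 34293 best-scored peaks, the length of the KN-RM list, the receptor genes held 121, 112, 117, 109, 103 and 99 peaks, so most of the difference between lists lay in their lower-scored peaks. Each peak has a score from the authors' processing, which served here only to rank peaks within a list.

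The mean number of peaks per gene was higher for receptor genes than over all genes in each list. The means were 5.45, 3.57, 2.49, 3.74, 3.74 and 4.32 peaks per receptor gene in the order above, beside 2.81, 2.24, 1.53, 2.73, 2.43 and 3.09 per gene over all genes. The medians were 4, 2, 1, 3, 2 and 3 beside 1, 1, 1, 1, 1 and 2, so they were level in KN-RM. Receptor genes range from 3.31 kb (Nr0b2) to 735.0 kb (Rora), and a longer gene has more room for peaks. In the same order, 70.3%, 67.9%, 73.5%, 71.6%, 75.6% and 72.9% of their peaks lay inside the gene, against 60.5%, 59.0%, 57.5%, 57.2%, 57.8% and 58.1% of all assigned peaks.

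The number of receptor genes with at least 1 peak was close to the background in most lists. It was 34 of 47 in KC-H (background over all genes 64.4%), 32 in KC-N (60.2%), 27 in KN-RM (54.1%), 32 in Ly6CHi-RM (65.7%), 30 in Ly6CLo-RM (63.7%) and 34 in blood (68.1%). As shares the receptor genes stood at 72.3%, 68.1%, 57.4%, 68.1%, 63.8% and 72.3%. All 6 lists held a peak at 27 receptor genes (57.4%, against 51.7% of all genes), and no list held one at 9 (19.1%, against 27.4%). The 9 without a peak were Nr1h5, Nr1i3, Hnf4g, Nr2f2, Esrrb, Esrrg, Pgr, Nr5a1 and Nr0b1. Their products include the constitutive androstane receptor of hepatocytes (Nr1i3), the progesterone receptor (Pgr) and steroidogenic factor 1 of the adrenal gland and gonads (Nr5a1). The other 11 had a peak in some lists.

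**Figure D1:**
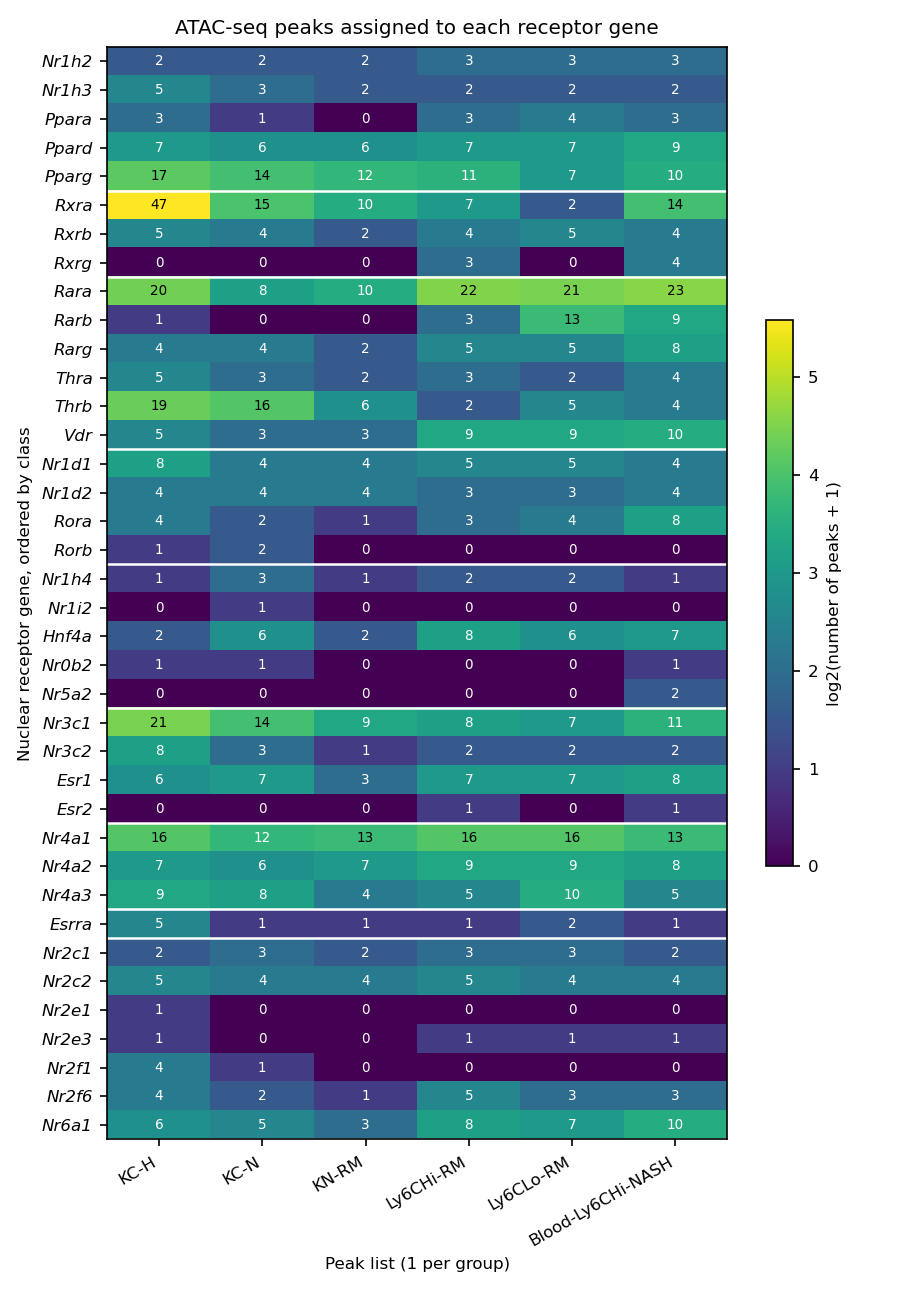
Number of ATAC-seq peaks assigned to each of the 38 receptor genes with a peak in some list (rows, grouped by class with white lines) in each of the 6 peak lists (columns); colour is log2(number of peaks + 1) and the printed number is the count. Rxra has 47 peaks in KC-H and 2 in Ly6CLo-RM, and Rarb has 13 in Ly6CLo-RM and 0 in KC-N and KN-RM.

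A peak with its centre within 500 bp of a listed start site, whichever gene the peak was assigned to, was also about as frequent at receptor genes as over all genes. Of the 43 with a listed start, 25 had such a peak in KC-H (background 52.0% of 17491 genes), 23 in KC-N (48.6%), 20 in KN-RM (44.7%), 23 in Ly6CHi-RM (51.4%), 22 in Ly6CLo-RM (50.3%) and 24 in blood (52.8%). The start was marked in all 6 lists at 19 receptor genes (44.2%, against 43.4% of all genes), in none at 16, and in some lists at 8. The 8 were Rxra (all but Ly6CLo-RM), Rarb (Ly6CHi-RM, Ly6CLo-RM and blood), Rarg (all but KC-N and KN-RM), Esr1 (KC-H, KC-N, Ly6CHi-RM and blood), Ppara (Ly6CLo-RM), Nr2f1 (KC-H), Rorb (KC-H and KC-N) and Nr0b2 (KC-H, KC-N and blood).

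Several start peaks ranked near the top of every list. Nr2c2, which encodes the orphan receptor TR4, had its start peak in the top 1.03% of KC-H, 0.688% of KC-N, 1.75% of KN-RM, 0.999% of Ly6CHi-RM, 0.586% of Ly6CLo-RM and 0.267% of blood. Esrra, the estrogen-related receptor alpha of mitochondrial genes, had a start peak in the top 1.2% to 4.74% of the lists. For Nr4a1 the range was 1.07% to 6.2%, and for Nr1d2, a repressor of the circadian clock, 2.11% to 8.61%. At the Nr4a2 start it was 1.98% to 8.95%, but that peak was assigned to another gene in every list, and the best start peak assigned to Nr4a2 itself ranked in the top 50.4% to 86.0%. Start peaks in the lower-scored 50% of each list that held them were those of Ppara (top 97.3% of Ly6CLo-RM), Nr2f1 (70.5% of KC-H), Esr1 (59.2% to 97.5%), Rorb (75.4% and 89.4%) and Nr0b2 (up to 86.8%).

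**Figure D2:**
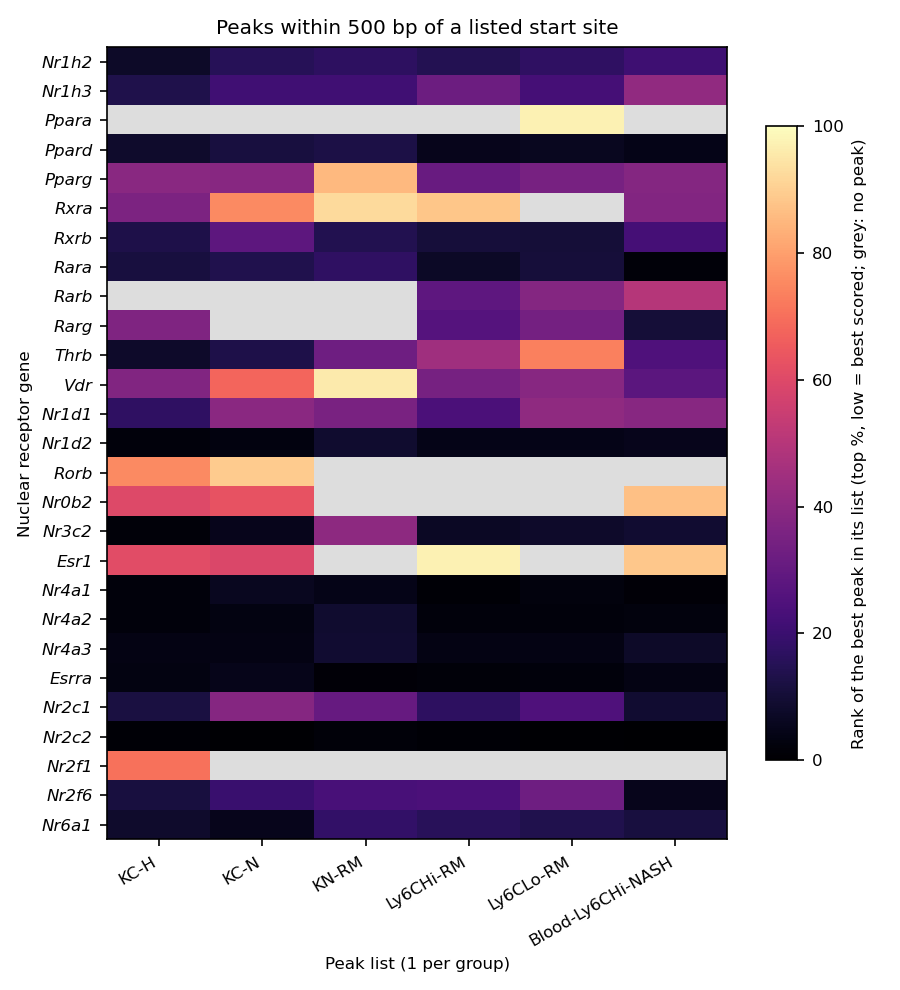
Rank of the best peak within 500 bp of a listed start site, whichever gene it was assigned to, as the top percent of its list (colour, low and dark for the best scored, grey for no peak), for the 27 receptor genes with such a peak in some list (rows) in the 6 lists (columns). Nr2c2 is in the top 1.75% or better in every list, while the Rarb start is grey in the 3 F4/80-high lists.

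Among the lipid sensors, Nr1h3 encodes LXR alpha and Nr1h2 encodes LXR beta. Nr1h3 had 5 KC-H peaks, 3 KC-N peaks and 2 peaks in each of the other 4 lists, and Nr1h2 had 2 in each F4/80-high list and 3 in each of the other 3. Both LXR genes were thus marked in every list, by 2 regions each that all 6 lists shared. At Nr1h3 the shared regions were at the start site and at chr2:91196921-91197121 inside the gene, at -1.91 kb from the nearest listed start. The inner one ranked in the top 12.5% of KC-H, 7.93% of KC-N, 16.8% of KN-RM, 17.4% of Ly6CHi-RM, 13.3% of Ly6CLo-RM and 46.7% of blood. It was the best-scored Nr1h3 peak in each liver list, and in blood the start peak, in the top 41.4%, scored higher. Another Nr1h3 region, at -0.99 kb from the start, was in KC-H (top 52.7%) and KC-N (51.8%) only.

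The peroxisome proliferator-activated receptors (PPARs) respond to fatty acids and their derivatives. Pparg, known in macrophages for lipid uptake and alternative activation, had 17 peaks in KC-H, 14 in KC-N, 12 in KN-RM, 11 in Ly6CHi-RM, 7 in Ly6CLo-RM and 10 in blood. The F4/80-high lists had more, but the equal-length lists held 6, 6, 12, 6, 3 and 4, and no list had a Pparg peak better than the top 31.0%. Of the 23 Pparg regions, 12 were found in 1 or more F4/80-high lists alone and 3 in the other lists alone. Of the 12, 5 were in KC-H alone and 2 in each F4/80-high list. The share of all regions in 1 or more F4/80-high lists alone was not computed, here or for the receptors below. Nor was that for the other lists alone. Of all regions, 9.84% were in KC-H alone and 1.89% in each F4/80-high list and no other. Its first start site, shown above, held a peak in every list (chr6:115361056-115361256 in KC-H). Ppard had 7, 6, 6, 7, 7 and 9 peaks, 6 of them shared by all lists, and its start peak ranked in the top 4.68% to 12.6%. Ppara, the fatty acid oxidation receptor of hepatocytes, had 3, 1, 0, 3, 4 and 3 peaks, and only 1 of them, in Ly6CLo-RM, lay inside the gene.

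The RXR genes were the most uneven class. Rxra, which encodes the common partner of the LXRs, PPARs and retinoic acid receptors, had 47 peaks in KC-H, 15 in KC-N, 10 in KN-RM, 7 in Ly6CHi-RM, 2 in Ly6CLo-RM and 14 in blood. KC-H stood far above the other lists and Ly6CLo-RM below them, with blood at the level of KC-N. Only 9 of all genes had 47 or more peaks in KC-H, Rxra included. In the other lists the genes with at least as many peaks as Rxra numbered 379 in KC-N, 428 in KN-RM, 2502 in Ly6CHi-RM, 9869 in Ly6CLo-RM and 825 in blood.

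Of the 47 KC-H peaks at Rxra, 31 lay inside the gene (86.9 kb) and 16 outside it, and 28 had no overlapping peak in any other list. KC-N held 14 of them, KN-RM 10, Ly6CHi-RM 7, Ly6CLo-RM 2 and blood 13. No other list had an Rxra peak of its own. In 1 or more F4/80-high lists alone were 33 of the 47 Rxra regions, 28 of these in KC-H alone and 3 in each F4/80-high list. Of all regions, 9.84% and 1.89% were held in the last 2 ways. Of the 47 peaks, 13 were in the best-scored 50% of KC-H, beside 4, 3, 3, 1 and 6 in the other lists. In equal-length lists Rxra had 14, 8, 10, 3, 1 and 6 peaks, so KC-H remained the highest by a smaller margin.

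The best-scored Rxra peak was the same region in every list, chr2:27740250-27740450 in KC-H, which lies 63.1 kb into the gene. It ranked in the top 1.5% of KC-H, 5.41% of KC-N, 7.82% of KN-RM, 17.2% of Ly6CHi-RM, 15.1% of Ly6CLo-RM and 16.1% of blood. The gene therefore held a high-ranked region also in the list with 2 Rxra peaks. Within 500 bp of the first Rxra start site, shown above, the best peak ranked in the top 36.3% of KC-H, 75.4% of KC-N, 92.4% of KN-RM, 87.9% of Ly6CHi-RM and 37.6% of blood. Ly6CLo-RM had none there. These were not all 1 region. The KN-RM and Ly6CHi-RM peaks were centred at -236 and -260 bp and overlapped neither the KC-N nor the blood peak. The Kupffer cell marker sums given above were also highest in KC-H and lowest in Ly6CLo-RM. The liver endothelial sums were highest in KC-H (32) and lowest in KN-RM (13). The part of these cells in the Rxra counts was not tested.

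**Figure D3:**
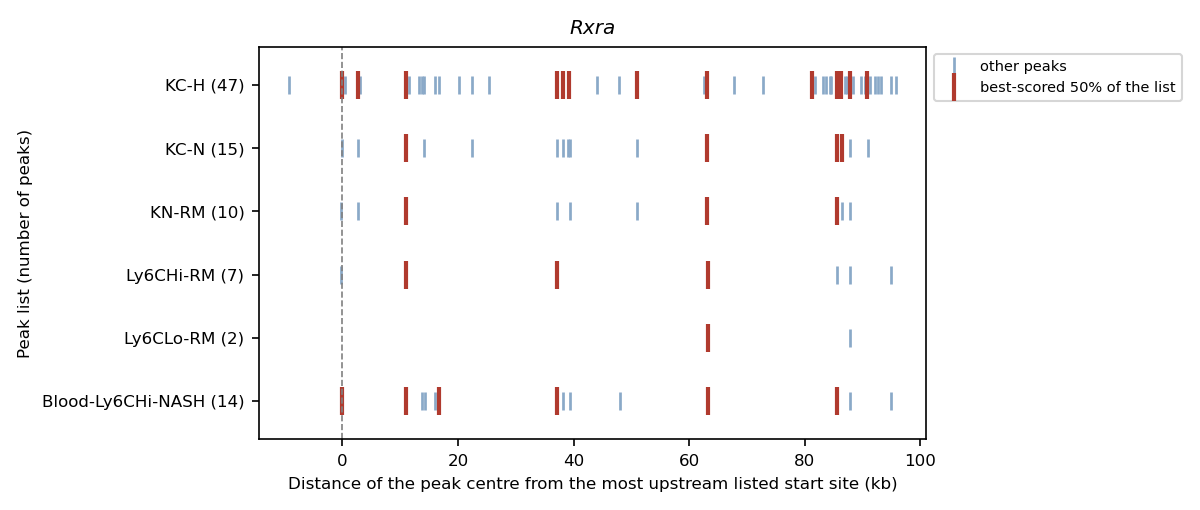
Peaks assigned to Rxra in each list, placed by the distance of the peak centre from the most upstream listed start site (x axis, kb; dashed line at 0), with the number of peaks in brackets; red marks are peaks in the best-scored 50% of their list and blue marks are the others. KC-H has 47 marks, most of them blue, and the region at about 63.1 kb is red in all 6 lists.

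Rxrb had 5, 4, 2, 4, 5 and 4 peaks, with 1 assigned start peak or more in every list but KN-RM, in the top 26.7% to 66.1%. A peak that ranked higher, in the top 10.5% to 22.6%, lay within 500 bp of an Rxrb start in every list but KC-N and was assigned to another gene. Rxrg had 0 peaks in the F4/80-high lists and Ly6CLo-RM, 3 in Ly6CHi-RM and 4 in blood. The 3 of Ly6CHi-RM all overlapped blood peaks, none was in the best-scored 50% of its list, and none was near a listed start.

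Among the 6 retinoid, thyroid and vitamin D receptors, Thrb had more peaks in each F4/80-high list than in any other list. Rarb, Rara, Vdr and Rarg had fewer, and Thra showed neither order. The share of all genes that part in the same way was not computed. In equal-length lists the parting ended in a tie for Rara (6, 8 and 10 against 12, 12 and 10) and Rarg (3, 2 and 2 against 4, 3 and 3). Thrb, which encodes a thyroid hormone receptor, had 19 peaks in KC-H, 16 in KC-N, 6 in KN-RM, 2 in Ly6CHi-RM, 5 in Ly6CLo-RM and 4 in blood. Both Tim4-positive lists were well above the rest, and the same order was kept in equal-length lists for these 2 (11 and 10 peaks, then 6, 1, 0 and 1). Of 20 Thrb regions, 15 were found in 1 or more F4/80-high lists alone, 4 of these in KC-H alone and 2 in each F4/80-high list. Of all regions, 9.84% and 1.89% were held in the last 2 ways. The CD11b-high and blood lists alone held 0, and all lists shared 2. The 2 shared ones were at the start site shown above and at -1.83 kb from it. The start peak (chr14:17660791-17660991 in KC-H) ranked in the top 8.03% of KC-H, 13.2% of KC-N, 32.7% of KN-RM, 44.7% of Ly6CHi-RM, 73.8% of Ly6CLo-RM and 24.9% of blood, and it was the best-scored Thrb peak in each list except Ly6CLo-RM.

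Rarb, the retinoic acid receptor whose promoter carries the repeat shown above, had the opposite pattern. It had 1 peak in KC-H, 0 in KC-N, 0 in KN-RM, 3 in Ly6CHi-RM, 13 in Ly6CLo-RM and 9 in blood. Of its 16 regions, 15 were in the CD11b-high and blood lists alone, and the single KC-H peak overlapped none of them. Of these 15, 3 were in all 3 of those lists, as were 5.72% of all regions. In Ly6CLo-RM alone were 6 (3.93% of all regions) and in blood alone 2 (9.67%). In equal-length lists Rarb had 0, 0, 0, 2, 8 and 2 peaks, so Ly6CLo-RM stayed the highest. Rarb spans 651.0 kb, its listed start site lies within that span, and all 13 Ly6CLo-RM peaks lay inside the gene. Of these, 11 lay between 41.2 kb after and 22.7 kb before the listed start site.

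At the Rarb start the peak (chr14:16575467-16575667 in Ly6CLo-RM) ranked in the top 28.7% of Ly6CHi-RM, 38.2% of Ly6CLo-RM and 49.8% of blood. In the F4/80-high lists the nearest peak of any kind was over 100 kb away, at 118205 bp in KC-H, 147696 bp in KC-N and 147727 bp in KN-RM. The best-scored Rarb peak in Ly6CLo-RM was chr14:16564023-16564223, 11.4 kb from the start, in the top 14.7%. It was shared with Ly6CHi-RM (top 34.2%) and blood (30.6%). A region at chr14:16548320-16548520, 27.1 kb from the start and in the top 17.0% of Ly6CLo-RM, had no peak in any other list. The dendritic cell marker sums, at 23, 19, 15, 35, 42 and 37, were also highest in Ly6CLo-RM. By gene, Zbtb46 and Ccr7 were highest there and Flt3 in blood (1, 1, 1, 11, 11 and 12). Xcr1 (6, 5, 4, 5, 5 and 6) and Itgax (3, 5, 4, 5, 5 and 3) had no such order. The part of dendritic cells in the Rarb counts was not tested.

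**Figure D4:**
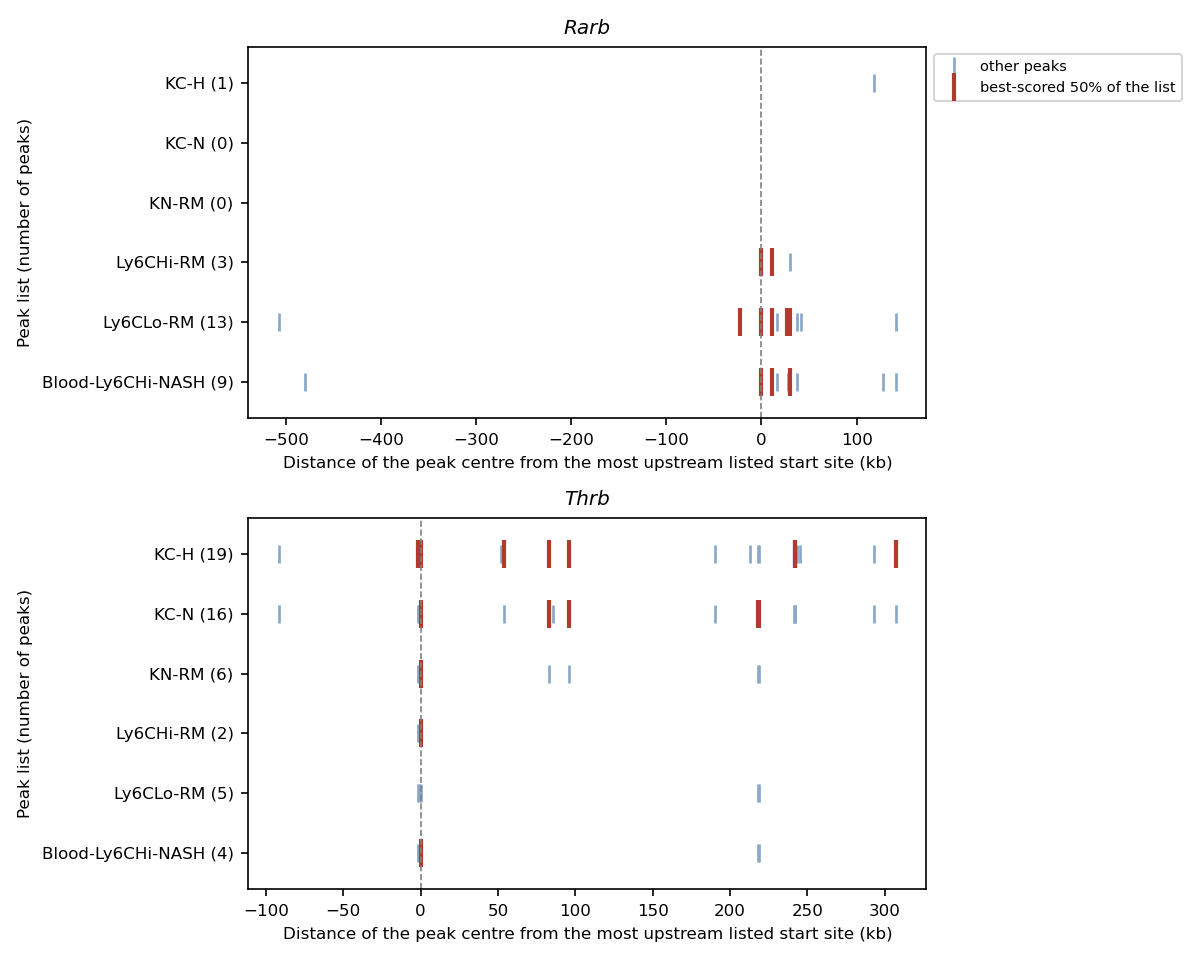
Peaks assigned to Rarb (top) and Thrb (bottom) in each list, by distance of the peak centre from the most upstream listed start site (x axis, kb; dashed line at 0), with the number of peaks in brackets; red marks are peaks in the best-scored 50% of their list. Rarb has 13, 9 and 3 peaks in Ly6CLo-RM, blood and Ly6CHi-RM and 1 in the 3 F4/80-high lists together, whereas Thrb has 19 and 16 in KC-H and KC-N.

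Rara, the retinoic acid receptor known in myeloid cells, had 20 peaks in KC-H, 8 in KC-N, 10 in KN-RM, 22 in Ly6CHi-RM, 21 in Ly6CLo-RM and 23 in blood. KC-N and KN-RM stood below the other 4 lists. All 8 KC-N peaks were found in every list, as was the first start peak shown above (top 1.62% of blood to 17.5% of KN-RM). In equal-length lists Rara had 6, 8, 10, 12, 12 and 10 peaks, and KC-H was then the lowest. The direction between KC-H and KC-N thus turned with the list length, while both CD11b-high lists stayed above KC-N. The best Rara peak of KC-H, chr11:98959540-98959740, lay inside the gene, in the top 8.61%.

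Vdr, the vitamin D receptor, had 5, 3 and 3 peaks in KC-H, KC-N and KN-RM and 9, 9 and 10 in Ly6CHi-RM, Ly6CLo-RM and blood. How many of all genes are lower in each F4/80-high list was not computed. Of 14 Vdr regions, 9 were in the CD11b-high and blood lists alone and 2 in F4/80-high lists alone. Of the 9, 3 were in all 3 of those lists, as were 5.72% of all regions. Equal-length lists held 3, 3, 3, 5, 4 and 4. The Vdr start peak was in every list, in the top 27.9% of blood and the top 95.8% of KN-RM. Rarg had 4, 4, 2, 5, 5 and 8 peaks, and Thra 5, 3, 2, 3, 2 and 4.

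Of the 4 clock receptors, Nr1d1, Nr1d2 and Rora were marked in every list, and Rorb had 1 peak in KC-H, 2 in KC-N and 0 elsewhere. Nr1d1, which encodes REV-ERB alpha, a repressor of the clock, had 8, 4, 4, 5, 5 and 4 peaks, and 4 of them were shared by all lists. Nr1d2 had 4, 4, 4, 3, 3 and 4. Rora, an activator that binds the same elements as the REV-ERBs, had 4, 2, 1, 3, 4 and 8, with 1 region shared by all. Nr1d1 overlaps Thra at their ends on chromosome 11, yet no peak centre lay in both genes.

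Of 8 receptors known from hepatocytes, 2 had a peak in every list and 3 in none. Hnf4a, a main regulator of hepatocyte identity, had 2, 6, 2, 8, 6 and 7 peaks, above the mean receptor gene in KC-N, Ly6CHi-RM, Ly6CLo-RM and blood. Of these, 1, 4, 1, 5, 4 and 5 lay outside the gene. None of the Hnf4a peaks lay at a listed start site. The 1 region in all lists, 68.8 kb from the first start, was also outside the gene. Nr1h4, the bile acid receptor FXR, had 1, 3, 1, 2, 2 and 1, with 1 shared region inside the gene and no start peak. Nr1i2, the xenobiotic receptor PXR, had 1 peak in KC-N alone, and Nr1i3 and Hnf4g had none. Nr0b2, the repressor SHP, had a start peak in KC-H, KC-N (top 63.2%) and blood (86.8%) and no other peak, and Nr5a2 had 2 peaks in blood alone. The hepatocyte marker sums given above were 1 to 3 in the liver lists, and 13 in blood.

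Among the steroid receptors, Nr3c1, the glucocorticoid receptor, had 21 peaks in KC-H, 14 in KC-N, 9 in KN-RM, 8 in Ly6CHi-RM, 7 in Ly6CLo-RM and 11 in blood. The Tim4-positive lists were highest, and 6 regions were shared by all lists. Of its 26 regions, 14 were found in 1 or more F4/80-high lists alone, 9 of these in KC-H alone and 1 in each F4/80-high list. Of all regions, 9.84% and 1.89% were held in the last 2 ways. Equal-length lists held 9, 11, 9, 6, 6 and 6 peaks. The best-scored peak was the same region in every list, chr18:39489839-39490039 in KC-H, in the top 5.21% of KC-H, 10.7% of KC-N, 17.8% of KN-RM, 4.07% of Ly6CHi-RM, 4.62% of Ly6CLo-RM and 1.89% of blood. It ranked highest in blood, where the gene had fewer peaks than in KC-H.

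Nr3c2, the mineralocorticoid receptor, had 8, 3, 1, 2, 2 and 2 peaks, and 5 of the 8 in KC-H were found nowhere else. KC-H alone held 9.84% of all regions. Its start peak ranked in the top 1.87% of KC-H and 40.5% of KN-RM, with the other lists between 5.1% and 9.25%. Esr1, the estrogen receptor alpha, had 6, 7, 3, 7, 7 and 8, and Esr2 1 each in Ly6CHi-RM and blood.

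The NR4A receptors, immediate-early genes that need no ligand, were the evenest class with many peaks. Nr4a1 had 16 peaks in KC-H, 12 in KC-N, 13 in KN-RM, 16 in Ly6CHi-RM, 16 in Ly6CLo-RM and 13 in blood. The lists overlap closely here, and 10 of the 20 Nr4a1 regions were in all 6. Its best-scored peak was 20.4 kb before the start (chr15:101246380-101246580, top 2.06%) in KC-H, and that region stayed within the top 3.06% of every list. Nr4a2 had 7, 6, 7, 9, 9 and 8 peaks. Nr4a3 had 9, 8, 4, 5, 10 and 5, and 3 of the 10 in Ly6CLo-RM were in no other list. Ly6CLo-RM alone held 3.93% of all regions. Per the labels the liver was digested with flavopiridol, a transcription inhibitor, and its part in these peaks was not tested.

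The 10 other orphan receptors, with the estrogen-related ones counted apart, summed to 23, 15, 10, 22, 18 and 20 peaks. The 3 NR4A receptors summed to 32, 26, 24, 30, 35 and 26. Nr6a1, the germ cell nuclear factor, had 6, 5, 3, 8, 7 and 10. Nr2c1 and Nr2c2 had 2 to 3 and 4 to 5 in each list, Nr2f6 had 4, 2, 1, 5, 3 and 3, and Esrra 5, 1, 1, 1, 2 and 1. Nr2f1, which encodes COUP-TF1, had 4 KC-H peaks and 1 KC-N peak. Nr2e1 had 1 in KC-H and Nr2e3 1 each in KC-H, Ly6CHi-RM, Ly6CLo-RM and blood.

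Peaks of the 6 lists were next merged into regions, 368 at receptor genes of 100354 in all. All 6 lists held 83 of them (22.6%, against 25.4% of all regions). KC-H alone held 79 (21.5%, against 9.84%), of which 28 were at Rxra. Without Rxra it was 51 (15.9%). With peak centres within 1000 bp merged, KC-H alone held 36 of 221 (16.3%, against 7.14%). Regions in each F4/80-high list and nowhere else numbered 9 (2.45%, against 1.89%), and those in blood plus Ly6CHi-RM plus Ly6CLo-RM and nowhere else numbered 21 (5.71%, against 5.72%), close to the background. Blood alone held 24 (6.52%, against 9.67%) and Ly6CLo-RM alone 15 (4.08%, against 3.93%).

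The lists were then compared in 5 pairs. A gene was called where one list had at least 2 times and at least 3 more peaks than the other. A region was called list-specific where it was in the best-scored 50% of one list and overlapped no peak of the other. The background is the percent of all genes with a peak in either list that met the same call. Genes with many peaks can reach the first call more easily, and the mean peak number was higher for receptor genes than over all genes. Among genes with 3 or more peaks in either list, the first call was met by 21.4% of receptor genes for KC-H over KC-N (10.5% of all such genes) and 3.57% for the reverse (1.19%), and by 17.4% for KC-N over KN-RM (16.6%), which is level with the background. It was met by 11.5% for blood over Ly6CHi-RM (3.84%), 7.69% for Ly6CHi-RM over Ly6CLo-RM (5.65%) and 11.5% for the reverse (1.09%), and by 14.3% for KC-N over Ly6CLo-RM (5.54%) and 14.3% for the reverse (9.7%). No receptor gene met it for KN-RM over KC-N (0.0798%) or Ly6CHi-RM over blood (0.441%).

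**Figure D5:**
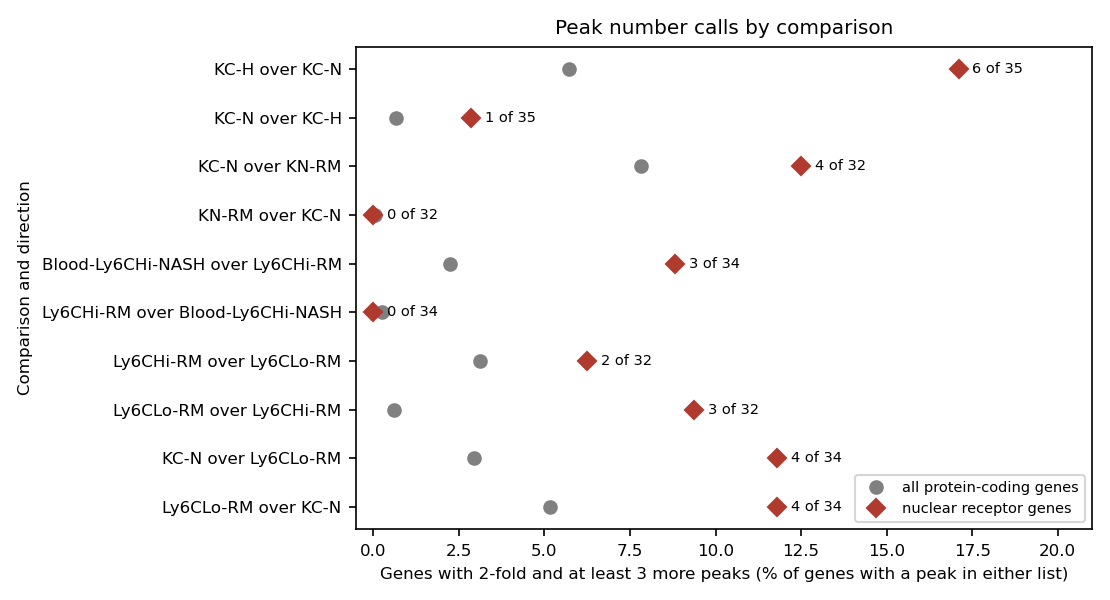
Percent of genes with at least 2 times and at least 3 more peaks in the first list than in the second (x axis, percent of genes with a peak in either list) for each comparison and direction (y axis); diamonds are receptor genes with their counts and circles are all protein-coding genes. KC-H over KC-N has 6 of 35 receptor genes against 5.72% of all genes, and KN-RM over KC-N has 0 of 32.

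KC-H and KC-N differ by diet. More peaks in KC-H were called at 6 of 35 receptor genes (background 5.72%): Rxra, Rara, Nr1d1, Nr2f1, Nr3c2 and Esrra. More in KC-N were called at 1, Hnf4a (background 0.65%). In equal-length lists 1 of the 6, Nr3c2, was still called (5 against 2), Rxra stood at 14 against 8, and the call for KC-N was Esr1 (6 against 3) in place of Hnf4a. KC-H had 7 list-specific regions and 6 receptor genes with more of them than KC-N (background 9.0%). KC-N had 3 such regions and 3 such genes (4.48%). The best scored of KC-H were chr2:27758451-27758651 at Rxra (score 70), chr8:71381413-71381613 at Nr2f6 (67) and chr8:76899549-76899749 at Nr3c2 (65), and those of KC-N were chr2:57114411-57114611 at Nr4a2 (44), chr10:4621050-4621250 at Esr1 (40) and chr4:48044656-48044856 at Nr4a3 (39). Where absence meant no peak centre within 1000 bp, 2 and 1 remained, and equal-length lists gave 0 and 1.

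KC-N and KN-RM, which differ by Tim4 on the NASH diet, gave calls at 4 of 32 receptor genes for KC-N (background 7.81%), namely Thrb, Hnf4a, Nr4a3 and Esr1. None was called for KN-RM (0.0375%). The KC-N list is the longer of the pair. In equal-length lists Esr1 was still called (6 against 3), and Pparg was called for KN-RM (12 against 6). List-specific regions numbered 3 for KC-N, at 2 genes (9.54%), and 1 for KN-RM, at 1 gene (0.819%). Both best of KC-N were at Esr1, chr10:4612795-4612995 (score 43) and chr10:4621050-4621250 (40), followed by the Nr4a3 region named above, and that of KN-RM was chr11:98942160-98942360 at Rara (45).

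Blood monocytes and Ly6C-high liver macrophages differ by tissue and by digestion, which cannot be told apart. More peaks in blood were called at 3 of 34 receptor genes (background 2.25%): Rxra (14 against 7), Rarb (9 against 3) and Rora (8 against 3). None was called the other way (0.258%). In equal-length lists Rxra was still called (6 against 3) and Nr6a1 joined it (6 against 3), Rarb had 2 peaks in both lists, Rora fell by 1 from Ly6CHi-RM to blood, and Nr4a2 was called for Ly6CHi-RM (7 against 3). Blood had 3 list-specific regions, at 2 genes (4.13%): chr2:27693816-27694016 (score 68) and the start site chr2:27677092-27677292 (58) at Rxra, and chr17:28260242-28260442 at Ppard (56). Ly6CHi-RM had 1, chr11:98772958-98773158 at Nr1d1 (score 48), so 1 gene had more in that direction (2.6%). Ly6CHi-RM had a peak centre within 500 bp of the Rxra start region and of the Ppard region, and none within 1000 bp of the other Rxra region.

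Ly6CHi-RM and Ly6CLo-RM differ by Ly6C. More peaks in Ly6CHi-RM were called at 2 of 32 receptor genes (background 3.11%), Rxra (7 against 2) and Rxrg (3 against 0). More in Ly6CLo-RM were called at 3 (0.597%): Rarb (13 against 3), Nr4a3 (10 against 5) and Thrb (5 against 2). In equal-length lists Rarb was still called (8 against 2), Thrb turned to 0 against 1, and the call for Ly6CHi-RM was Pparg (6 against 3) in place of Rxra and Rxrg. List-specific regions numbered 3 for Ly6CHi-RM, with 2 genes ahead (6.3%), and 6 for Ly6CLo-RM, with 3 genes ahead (3.97%). All 9 held by distance too. Those of Ly6CHi-RM were chr2:27714245-27714445 and chr2:27688081-27688281 at Rxra (scores 55 and 53) and chr15:97871164-97871364 at Vdr (52). The best of Ly6CLo-RM were the Rarb region 27.1 kb from the start (85), chr4:48048021-48048221 at Nr4a3 (59) and chr9:69349626-69349826 at Rora (58).

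KC-N and Ly6CLo-RM compare resident and recruited cells on the same diet. More peaks in KC-N were called at 4 of 34 receptor genes (background 2.95%): Rxra (15 against 2), Thrb (16 against 5), Pparg (14 against 7) and Nr3c1 (14 against 7). More in Ly6CLo-RM were called at 4 (5.16%): Rarb (13 against 0), Rara (21 against 8), Vdr (9 against 3) and Ppara (4 against 1). In equal-length lists Rxra (8 against 1), Thrb (10 against 0), Pparg (6 against 3) and Rarb (8 against 0) kept their call, Esr1 was called for KC-N (6 against 3), and Nr3c1, Rara, Vdr and Ppara lost theirs. KC-N had 9 list-specific regions, with 5 genes ahead (10.4%), and Ly6CLo-RM had 16, with 7 genes ahead (11.9%), so the numbers of genes ahead were not far from the background. Rarb held 6 of the 16. The best of KC-N were chr2:27762595-27762795 and chr2:27688107-27688307 at Rxra (scores 60 and 57) and chr14:17743779-17743979 at Thrb (52). The best of Ly6CLo-RM were the Rarb regions 11.4 kb (91) and 27.1 kb (85) from the start and chr11:98942252-98942452 at Rara (70).

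Genes that work with the receptors were counted in the same way. The 23 coregulator genes summed to 195, 150, 99, 167, 147 and 198 peaks (100, 104, 99, 86, 92 and 88 in equal-length lists). In the pair of KC-N and Ly6CLo-RM 2 of 23 were called each way (background 2.95% for KC-N and 5.16% for Ly6CLo-RM). In the other pairs 0 to 3 of 23 were called per direction, against 0.0375% to 7.81% of all genes. Nrip1, a corepressor of many receptors, had 37, 27, 17, 15, 15 and 13 peaks, highest in the Tim4-positive lists. Ppargc1a, the coactivator PGC-1 alpha, had 4, 2, 0, 13, 10 and 17, lowest in the F4/80-high lists. Ppargc1b, another of the 23, had 12, 11, 5, 8, 4 and 8, without that order. Of 13 LXR target genes, 3 of the 12 with a peak were called for KC-H over KC-N (Apoe, Scd1 and Srebf1) and none for KC-N. The call for KC-H was met by 5.72% of all genes, and by 10.5% of those with 3 or more peaks in either list. The LXR targets summed to 132, 95, 80, 70, 71 and 83 peaks, and to 77, 74, 80, 41, 45 and 43 in equal-length lists. There KC-H no longer led, KN-RM was the highest, and the F4/80-high lists stayed above the other 3. Abca1, the cholesterol exporter under LXR control, had 42, 35, 24, 21, 18 and 21 peaks. Of 14 clock genes, which summed to 73, 69, 56, 105, 93 and 107 peaks (49, 50, 56, 61, 67 and 51 in equal-length lists), Per3 had 0 in each F4/80-high list and 4, 4 and 3 in the others.

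The 100 kb rule kept and left out peaks at its edge. The farthest kept was a KC-H peak 92757 bp from Nr3c1 (score 29), followed by a KC-N peak 89799 bp from Thrb (34). Just outside lay a KC-H peak 100033 bp from Nr3c1 with a score of 88 and a KN-RM peak at 100046 bp with a score of 21. Between 100 and 1000 kb, 4 to 16 further peaks per list had a receptor gene as the nearest gene.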

How the data were processed

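ATAC-seq peak lists of 6 groups, made from 12 libraries, were read as deposited, on mm10. Bowtie2, HOMER and DESeq2 are named, with no roles, per the submitters' processing notes, and the lists' names refer to the irreproducible discovery rate; how the libraries were joined is not given in the sources used here. Each deposited peak carries a normalized tag signal and a score, both made by the authors. Peaks were ranked within a list by the score, and ties were ordered by the tag signal. Depth per library is unknown.

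Peaks were assigned to protein-coding genes of RefSeq (GRCm38.p6) as stated above, with Python 3.11.15, numpy 2.4.6, pandas 2.3.3 and scipy 1.17.1, by scripts tested on simulated data. Peaks sharing 1 bp were the same region. No p-value was computed, since each group has 1 list. Receptors described in full had 10 or more peaks in some list or 2 or more list-specific regions of 1 direction, or were lipid, RXR or hepatocyte receptors. For each pair and direction, up to 3 best-scored list-specific regions were named. The receptor genes, the other gene lists and the rules were chosen with earlier results of these data known.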

Additional observations from a re-analysis of the deposited data

How the results depend on the processing

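No paired analysis was possible because each group has 1 list made from both libraries, and for the same reason no replicate could be left out. List length moved 20 of 32 summary counts, and the score limit moved the list-specific regions of all 10 directions. With equal-length lists the receptor peaks numbered 121 in KC-H, 109 in Ly6CHi-RM, 103 in Ly6CLo-RM and 99 in blood. The list-specific regions were then 0 for KC-H and 1 for KC-N in their pair, 0 for KC-N and 2 for KN-RM, 1 for blood and 2 for Ly6CHi-RM, 0 for Ly6CHi-RM against Ly6CLo-RM, and 5 for KC-N and 6 for Ly6CLo-RM. The 2-fold calls were 1 each for KC-H over KC-N, KC-N over KN-RM, KN-RM over KC-N, Ly6CHi-RM over blood, Ly6CHi-RM over Ly6CLo-RM, Ly6CLo-RM over Ly6CHi-RM and Ly6CLo-RM over KC-N. With the best-scored 50% of each list the receptor peaks were 107, 77, 56, 94, 86 and 102, and calls were 2 for KC-H over KC-N, 0 for the reverse, 0 for Ly6CHi-RM over Ly6CLo-RM, 1 for the reverse and 2 for KC-N over Ly6CLo-RM. With regions from the best-scored 25%, list-specific ones numbered 0 for both directions of the first 3 pairs and for Ly6CHi-RM over Ly6CLo-RM, 1 for the reverse, 1 for KC-N and 3 for Ly6CLo-RM. With all peaks they were 111 and 21, 57 and 8, 48 and 21, 32 and 32, and 61 and 70, in the order of the pairs. Where an overlap of 50% was needed, KC-H had 11 over KC-N. With no centre within 1000 bp they were 2 for KC-H and 1 for KC-N, 0 for KN-RM, 1 for blood and 0 for Ly6CHi-RM, and 10 for Ly6CLo-RM against KC-N. Assignment to the nearest gene end gave 0 for KN-RM, 3 for Ly6CLo-RM over Ly6CHi-RM and 8 over KC-N, and 1 call for Ly6CLo-RM over Ly6CHi-RM. A window of 20 kb gave 1 call for Ly6CHi-RM over Ly6CLo-RM. With centres within 1000 bp merged, regions of 1 list alone were 36 in KC-H, 5 in KC-N, 0 in KN-RM, 2 in Ly6CHi-RM and 9 in Ly6CLo-RM, and 0 were in all but KC-H. Without Rxra, an alternative chosen after seeing the data, KC-H alone held 51. Differences that reversed were Rara in KC-H minus KC-N (-2 with equal-length lists, -1 with the best-scored 50%), Rora in blood minus Ly6CHi-RM (-1 with equal-length lists) and Thrb in Ly6CLo-RM minus Ly6CHi-RM (-1 under both). Of 135 checks of 27 single-gene calls, 91 kept the call, 39 lost it and 5 reversed, and the cause was not tested. The settings differed: equal-length lists kept 8 of the 27 calls and the best-scored 50% kept 10. The 20 kb window kept 23, the nearest gene end 24, and the gene with the nearer end 26.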
